A study of Homo sapiens with 6 samples.

Results

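The coactivators YAP1 and WWTR1 (also called TAZ), their DNA-binding partners TEAD1, TEAD2, TEAD3 and TEAD4, and the target genes CTGF, CYR61, ANKRD1 and AMOTL2 were examined in RNA-seq of Hep3B, an established human hepatocellular carcinoma cell line. These 10 genes were taken by name from the 23228 genes of the deposited count tables, and all 10 passed the filter on low counts that left 14537 genes for testing. The series compares 3 control libraries with 3 libraries labelled PELP1-KD, and asks which genes respond to lowered PELP1, a coregulator of transcription and ribosome production. Cells of both groups carried a lentiviral short hairpin RNA (shRNA) and were otherwise Hep3B in RPMI medium. The control hairpin had no human target, and the other group had a hairpin against PELP1, with cells kept as pooled clones after puromycin. The titles of that group name a single PELP1 shRNA, whereas its protocol lists a pair of them. Nothing states that replicates were separate cultures, so the p values measure the spread between these libraries, which may be technical. Throughout, ± is the SD over the 3 libraries of a group (n = 3), and SE is the standard error of a log2 fold change.

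YAP1 and WWTR1 carry no DNA-binding domain of their own. They act in the nucleus by binding TEAD factors, which recognise the sequence CATTCC in promoters and enhancers. The Hippo kinases STK3 and STK4 act through the kinases LATS1 and LATS2, which phosphorylate both coactivators. Phosphorylation holds the coactivators in the cytoplasm or leads to their breakdown, so much of their control lies in the protein and not in its RNA. In liver this pathway is known for its part in organ size, regeneration and tumour growth, and CTGF, CYR61, ANKRD1 and AMOTL2 are common readouts of YAP and TEAD activity.

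PELP1 itself, the targeted gene, had 4893, 4914 and 5102 normalized reads in control replicates 1 to 3, against 4421, 4825 and 4840 in the PELP1-KD replicates. Normalized reads are reads divided by the library's scaled size, so that libraries compare. The labelled group thus held 94.5% of the control level, which is −0.08 on the log2 scale (SE 0.04, edgeR adjusted p = 0.101). With the replicate number as a block it was called lower (edgeR adjusted p = 0.0106), and likewise without PELP1-KD replicate 3 (−0.10, edgeR adjusted p = 0.018). These libraries measure RNA, and PELP1 protein was not analysed here. Each direction below is that of the labels. Reads on genes came to 32945954 to 34456542 in control and 26758363 to 31535892 in the labelled group. The hepatocyte markers ALB, AFP, APOA1, TTR, GPC3, HNF4A and SERPINA1 were all present, with 2 called higher and 5 lower and summed levels of 626362 to 640773 normalized reads in control and 558556 to 571279 in the labelled group. Of the mesenchymal markers, THY1 and DCN were at or near 0, COL1A2 and LUM were called higher and PDGFRB lower, and the summed level of all 5 was 1199 to 1241 in control and 1693 to 1749 in the labelled group. The summed level of 4 endothelial markers was 63.0 to 72.8 in control and 60.7 to 67.6 in the labelled group, with CDH5 and KDR at 0 reads in every library. For comparison, 26.8% of all tested genes were called higher and 26.8% lower. The part of these markers in the results below was not tested. In bulk RNA of this kind, fewer cells of one type and less RNA per cell cannot be told apart.

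Of the 10 genes, 9 were lower and 1 was higher in the libraries labelled PELP1-KD, each with an adjusted p below 0.05 from edgeR's quasi-likelihood test. CTGF fell most, to 45.1% of control, followed by ANKRD1 (66.3%), CYR61 (68.8%), WWTR1 (74.7%) and AMOTL2 (75.8%). All 4 TEAD genes fell by less, to between 82.3% and 90.9% of control, and YAP1 was the only member that rose, to 111%. Calls were common in these libraries, since 53.6% of the 14537 tested genes were called, 26.8% lower and 26.8% higher. In all 10 genes the 3 values of one group lay above the 3 of the other, as they did for 58.8% of tested genes. The members' median log2 fold change was −0.34, against 0.00 for all tested genes. CTGF alone was called with a change of at least 2-fold, as were 4.79% of tested genes downward and 2.85% upward.

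**Figure D1:**
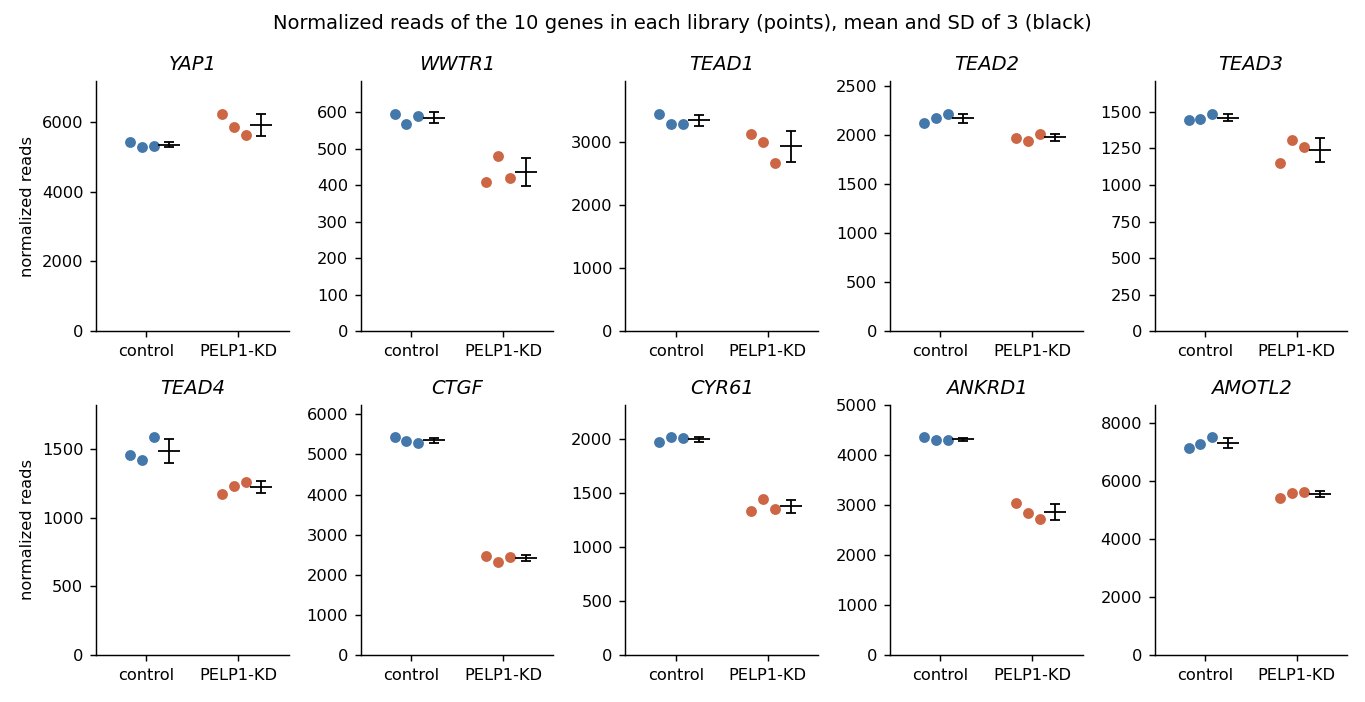
Normalized reads (vertical axis, from 0) of the 10 genes in the 3 control (blue) and 3 PELP1-KD (orange) libraries, with the mean and SD of each group in black. No gene has overlapping groups, the gap is widest for CTGF (5347 against 2411), and YAP1 is the only gene whose orange points are on top.

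The coactivators moved in opposite directions. YAP1, on the plus strand of chromosome 11 (hg19, 101981192 to 102104154), had 5412, 5287 and 5314 normalized reads in control replicates 1 to 3 and 6229, 5847 and 5621 in the labelled replicates. Every labelled library was above every control library, and the labelled ones were the more scattered. The means were 5338 ± 65.9 and 5899 ± 307, a log2 fold change of 0.14 (SE 0.04, 95% interval 0.06 to 0.23, edgeR adjusted p = 0.00488). WWTR1, on chromosome 3 from 149235022 to 149421060 on the minus strand, had 597, 568 and 590 normalized reads in control and 410, 482 and 419 in the labelled libraries. The highest labelled value, in replicate 2, stayed below all control values. WWTR1 fell from 585 ± 14.9 to 437 ± 39.2, by 0.42 on the log2 scale (SE 0.07, 95% interval −0.58 to −0.27, edgeR adjusted p = 6.32e-05).

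Levels can be compared between genes only per exon length, as RPKM, reads scaled for exon length and library size. YAP1 stood at 29.8 ± 0.37 RPKM in control and 33.0 ± 1.72 in the labelled group, and WWTR1 at 3.47 ± 0.09 and 2.59 ± 0.23. WWTR1 was thus the minor coactivator in both groups, and its share of the summed RPKM of the pair was 10.4% ± 0.161 in control and 7.30% ± 0.761 in the labelled libraries, without overlap. The ratio of YAP1 to WWTR1 lay between 8.49 and 8.77 in control and between 11.4 and 14.3 in the labelled group, without overlap. The summed level of the pair rested on YAP1 and was 32.9 to 33.8 RPKM in control and 33.9 to 37.2 in the labelled libraries. The ranges of this sum were separate, but only by a narrow gap.

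The TEAD genes encode the DNA-binding side of the complex, and all 4 were lower. TEAD4, on chromosome 12 from 3068478 to 3149842, fell most of them. It had 1454, 1422 and 1585 normalized reads in control and 1176, 1232 and 1262 in the labelled libraries. Its groups stayed apart although control replicate 3 was well above the other two. The log2 fold change was −0.28 (SE 0.05, 95% interval −0.39 to −0.17, edgeR adjusted p = 0.000163). TEAD3, on chromosome 6 from 35441374 to 35464861, had 1446, 1449 and 1488 in control and 1151, 1310 and 1258 in the labelled group. Here the labelled libraries were the scattered ones, and the log2 fold change was −0.24 (SE 0.05, edgeR adjusted p = 0.00077).

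TEAD1, on chromosome 11 from 12695969 to 12966284, had 3441, 3286 and 3274 normalized reads in control and 3118, 2998 and 2656 in the labelled libraries. Replicate 3 of the labelled group was the lowest by a wide margin. The log2 fold change was −0.19 (SE 0.05, edgeR adjusted p = 0.00356), and without that library it was −0.12 (edgeR adjusted p = 0.0088). TEAD2, on chromosome 19 from 49843855 to 49865714, had 2127, 2170 and 2218 in control and 1973, 1940 and 2012 in the labelled group. These are the closest groups among the TEAD genes, with a log2 fold change of −0.14 (SE 0.04, 95% interval −0.22 to −0.05, edgeR adjusted p = 0.0102). Without PELP1-KD replicate 2 the call on TEAD2 was lost (−0.12, edgeR adjusted p = 0.0552).

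Per exon length, TEAD2 was the leading TEAD gene at 32.0 ± 0.67 RPKM in control, followed by TEAD4 at 21.9 ± 1.27, TEAD3 at 15.5 ± 0.25 and TEAD1 at 11.3 ± 0.32. This order was the same in the labelled group, at 29.1 ± 0.52, 18.0 ± 0.64, 13.2 ± 0.87 and 9.88 ± 0.81, and no neighbours among the TEAD genes overlapped in either group. The summed RPKM of the 4 genes was 79.4 to 82.9 in control and 69.2 to 70.8 in the labelled libraries. The makeup of that sum moved little. TEAD2 made up 39.3% to 40.2% of it in control and 40.4% to 42.0% in the labelled libraries, and TEAD4 made up 26.4% to 28.2% and 25.0% to 26.3%. The shares of TEAD1 and TEAD3 overlapped between the groups.

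**Figure D2:**
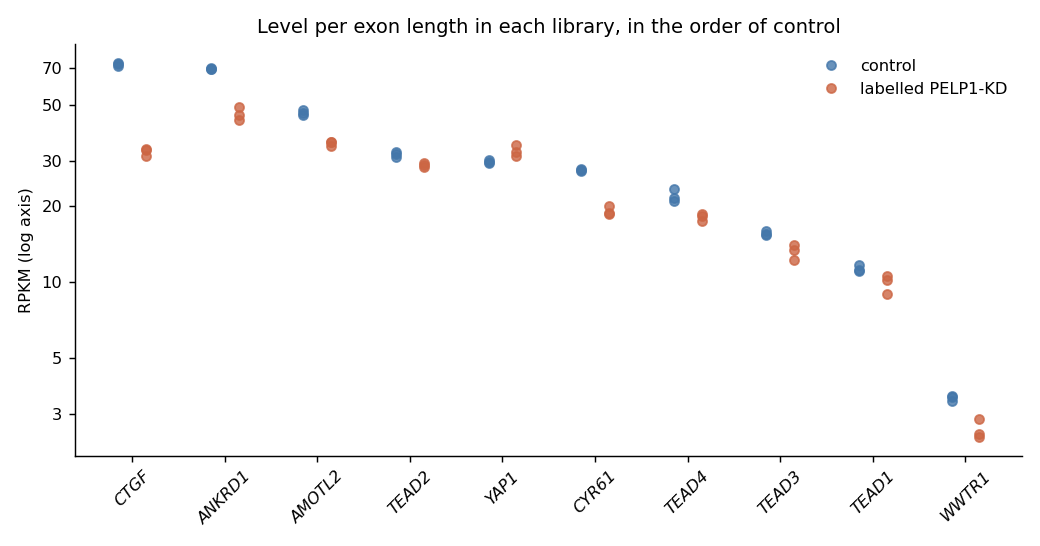
Level per exon length (RPKM, log axis) of the 10 genes in each library, control in blue and PELP1-KD in orange, ordered by the control mean. CTGF leads in control at 72.6 RPKM and drops to 32.7, beside YAP1 at 33.0, and WWTR1 is last in both groups.

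Across all 10 genes, the order in control ran from CTGF (72.6 RPKM) through ANKRD1 (69.7), AMOTL2 (46.6), TEAD2 (32.0), YAP1 (29.8), CYR61 (27.7), TEAD4, TEAD3 and TEAD1 to WWTR1. No neighbours in that order overlapped over the 3 libraries. In the labelled group ANKRD1 led at 46.2 RPKM, and CTGF stood below AMOTL2 and YAP1 as well. There AMOTL2, YAP1 and CTGF, at 35.4, 33.0 and 32.7 RPKM, overlapped with their neighbours, as did CYR61 and TEAD4. CTGF and ANKRD1 in control lay above 92.4% and 92.0% of tested genes in RPKM, and WWTR1 above 33.4%.

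CTGF and CYR61 encode secreted matricellular proteins of the CCN family, which act on cell adhesion and matrix. CTGF, on chromosome 6 from 132269317 to 132272518 on the minus strand, had 5425, 5339 and 5277 normalized reads in control and 2472, 2321 and 2439 in the labelled libraries. Both groups were tight, and the highest labelled library did not come near the lowest control library. The means were 5347 ± 74.3 and 2411 ± 79.7, a log2 fold change of −1.15 (SE 0.04, 95% interval −1.23 to −1.07, edgeR adjusted p = 6.52e-15). CYR61, on chromosome 1 from 86046444 to 86049648 on the plus strand, had 1972, 2014 and 2003 in control and 1335, 1440 and 1347 in the labelled group. It fell from 1996 ± 21.8 to 1374 ± 57.3, a log2 fold change of −0.54 (SE 0.05, 95% interval −0.64 to −0.44, edgeR adjusted p = 6.92e-09). The intervals of the log2 fold changes of CTGF and CYR61 did not overlap.

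ANKRD1 encodes an ankyrin repeat protein of muscle sarcomeres and nuclei, and it is also read as a YAP target in epithelial cells. It lies on chromosome 10 from 92671857 to 92681032 on the minus strand and had 4360, 4315 and 4299 normalized reads in control and 3043, 2842 and 2721 in the labelled libraries. The labelled libraries were more scattered than control, but far below it. The log2 fold change was −0.59 (SE 0.04, 95% interval −0.68 to −0.50, edgeR adjusted p = 5.62e-10). AMOTL2, a member of the angiomotin family that binds YAP1 and restrains it, is both a target and a feedback regulator. On chromosome 3 from 134074190 to 134093406, it had 7135, 7280 and 7503 normalized reads in control and 5423, 5576 and 5624 in the labelled group. Its log2 fold change was −0.40 (SE 0.04, 95% interval −0.47 to −0.32, edgeR adjusted p = 1.31e-08).

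The promoters of the targets are shown because TEAD factors read a short sequence that can be seen in them. RefSeq's table of promoters (GRCh38.p14) held 7 of the 10 genes, and the 250 bases before each annotated start were searched for GGAATG, the core of the TEAD site, and its reverse complement CATTCC. CYR61, TEAD1 and TEAD4 were not among the matched genes. The motif occurred at least once in 11.9% of the 35116 windows of the table, at least 2 times in 0.94% and at least 3 times in 0.0826%. It was in 4 of the 10 windows of the members. The window of CTGF held it 3 times, that of ANKRD1 2 times, and those of YAP1 and AMOTL2 1 time each. For AMOTL2 it was in the second of 2 annotated starts, on the other strand. Those of WWTR1, TEAD2 and TEAD3 did not hold these letters. Each printed stretch was found exactly once in GRCh37 (hg19), whose coordinates are given, and capitals mark the motif. The CTGF stretch ends where the gene model of the count tables begins, and for the other genes 30 bases around the motif are shown.
CTGF, chr6:132272519-132272762, minus strand: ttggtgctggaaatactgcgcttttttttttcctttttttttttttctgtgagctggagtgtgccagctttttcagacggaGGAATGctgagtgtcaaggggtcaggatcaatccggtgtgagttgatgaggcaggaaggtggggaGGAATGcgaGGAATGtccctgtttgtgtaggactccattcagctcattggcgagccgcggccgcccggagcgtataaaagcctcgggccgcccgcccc
ANKRD1 first motif, chr10:92681047-92681076, minus strand: atcaccaccaaaGGAATGgccctctcacat
ANKRD1 second motif, chr10:92680955-92680984, minus strand: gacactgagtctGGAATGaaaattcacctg
AMOTL2, chr3:134093341-134093370, minus strand: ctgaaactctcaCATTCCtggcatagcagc
YAP1, chr11:101981004-101981033, plus strand: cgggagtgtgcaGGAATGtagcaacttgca

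In CTGF the copies began 169, 104 and 95 bases before the annotated start, all on the strand of the gene, and the last pair was separated by only a few bases. The copies of ANKRD1 began 220 and 128 bases before its start. The gene model of the count tables begins 188 bases further upstream for ANKRD1 and 117 bases for AMOTL2, so the second ANKRD1 copy and the AMOTL2 copy lie inside those models. A match describes the letters of a window and is not a measured binding site. Some of the Hippo genes described below had several windows. The motif was in at least 1 window of 1 of 13 matched genes of the kinase cascade, of 4 of 17 upstream regulators and of 1 of 4 VGLL genes. Counted by window, as was the 11.9% over the whole RefSeq table, it was in 1 of 18, 4 of 28 and 1 of 8.

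**Figure D3:**
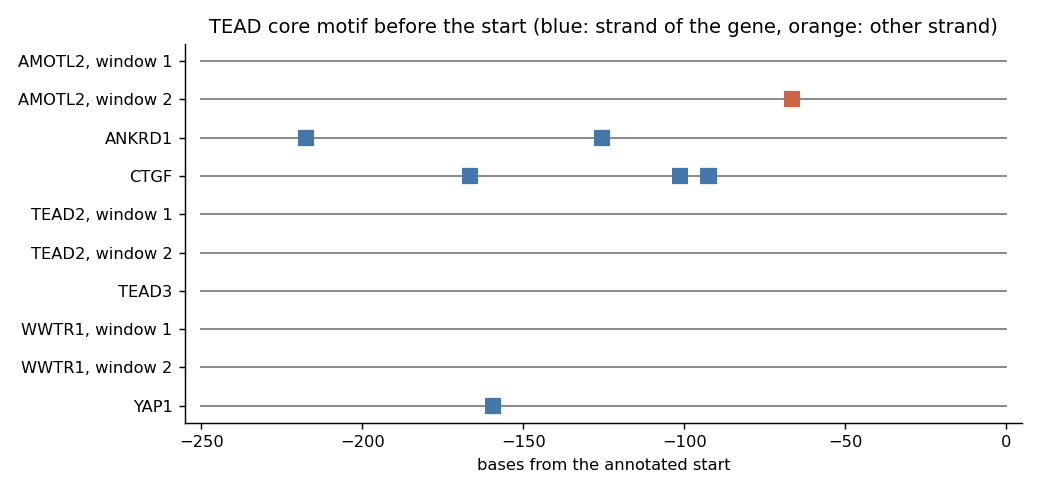
Copies of GGAATG (blue, strand of the gene) and of its reverse complement (orange) in the 250 bases before the annotated start of the members in the RefSeq table, with distance from the start in bases on the horizontal axis. CTGF has 3 copies, of which 2 begin 104 and 95 bases before the start.

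Other target genes of YAP and TEAD went both ways. A further 18 genes often used as targets were compiled from general knowledge, and 17 of them were tested, AXL being at or near 0. The shares of all tested genes called were 26.8% lower and 26.8% higher. Of the 17, 7 were called lower and 6 higher, and 4 were not called. Their median log2 fold change was −0.11, beside 0.00 for all tested genes, and it ranged from −1.63 to 1.83. MYOF, a membrane protein of vesicle fusion and repair, had 886, 866 and 859 normalized reads in control and 3243, 3079 and 2990 in the labelled libraries, so it rose to 356% of control while CTGF fell. Its log2 fold change was 1.83 (SE 0.05, edgeR adjusted p = 6.67e-17). CRIM1, a transmembrane protein that binds BMP ligands, rose by 0.42 (SE 0.04, edgeR adjusted p = 2.98e-08).

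FJX1, the human relative of the fly gene four-jointed, fell from 226 ± 15.9 to 72.6 ± 9.76 normalized reads, a log2 fold change of −1.63 (SE 0.13, edgeR adjusted p = 1.31e-09). NT5E, which encodes the adenosine-producing ectoenzyme CD73, had a log2 fold change of −0.67 (SE 0.05, edgeR adjusted p = 7.25e-10). FOXF2, a forkhead factor, was rare, at 55.9 ± 5.92 and 27.3 ± 9.49 normalized reads, with a log2 fold change of −1.04 (SE 0.24, edgeR adjusted p = 0.00126). LATS2, a Hippo kinase that is itself a YAP target, was not called (0.03, SE 0.04, edgeR adjusted p = 0.568). RefSeq's table held 13 of the 18 promoters. The TEAD motif was in those of AXL, FOXF2, NUAK2, PTPN14 and TGFB2, of which FOXF2 and PTPN14 fell and NUAK2 and TGFB2 were not called. The windows of MYOF, CCDC80 and F3, which rose, did not hold it. Neither did those of FJX1, IGFBP3 and NT5E, which fell, nor those of LATS2 and RBMS3, which were not called.

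**Figure D4:**
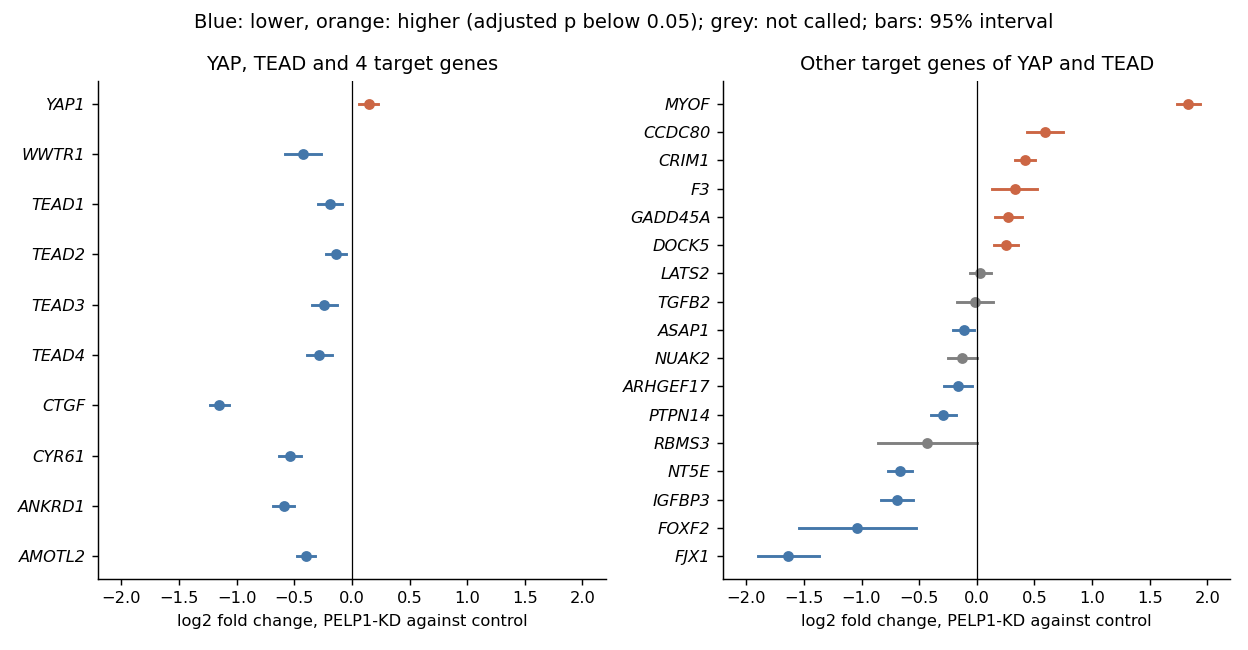
Log2 fold change of the libraries labelled PELP1-KD against control (horizontal axis) with its 95% interval for the 10 genes (left) and the 17 tested other targets (right), blue for called lower, orange for called higher, grey for not called. The left panel has 9 blue genes and 1 orange, and the right panel has 7 blue, 6 orange and 4 grey, from FJX1 at −1.63 to MYOF at 1.83.

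Of 14 genes of the Hippo kinase cascade, which restrains YAP1 and WWTR1, 13 were tested, 7 were called higher and 1 lower, and 5 were not called, with a median log2 fold change of 0.10. None of the 13 tested genes was called with a change of 2-fold. Over all tested genes, 26.8% were called higher and 26.8% lower. MAP4K1, the gene that was not tested, averaged under 15 normalized reads in each group. SAV1, the scaffold that joins STK3 and STK4 to the LATS kinases, rose from 502 ± 31.2 to 683 ± 43.0 normalized reads, by 0.45 on the log2 scale (SE 0.07, edgeR adjusted p = 2.36e-05). TAOK3, which encodes a kinase able to activate the cascade, rose by 0.30 (SE 0.05, edgeR adjusted p = 6.66e-05). MAP4K3, of the MAP4K kinases that act beside STK3 and STK4, was the one that fell, with a log2 fold change of −0.31 (SE 0.05, edgeR adjusted p = 3.69e-05). STK3 (0.02) and LATS1 (−0.02) were not called.

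Upstream regulators went both ways. All 25 genes of this list were tested, 8 were called higher and 11 lower, with a median of −0.10. Of all tested genes 26.8% were called higher and 26.8% lower, the shares to set beside this list and the pathway counts below. AMOT, the founder of the family of AMOTL2, fell from 323 ± 33.5 to 139 ± 12.9 normalized reads, a log2 fold change of −1.21 (SE 0.11, edgeR adjusted p = 9.21e-09), whereas the related AMOTL1 rose by 0.16 (SE 0.05, edgeR adjusted p = 0.011; AMOTL1 was named after its values had been seen). INADL, a scaffold of the apical Crumbs complex, fell from 305 ± 4.40 to 93.6 ± 21.5, a log2 fold change of −1.69 (SE 0.12, edgeR adjusted p = 5.65e-10). CDH1, the epithelial cadherin, rose from 7257 ± 24.5 to 13733 ± 107, by 0.92 (SE 0.03, edgeR adjusted p = 5.15e-15). WWC1, also called KIBRA, which activates the LATS kinases, rose by 0.48 (SE 0.04, edgeR adjusted p = 8.08e-10). RASSF6, a rarer RASSF protein, rose from 56.7 ± 9.64 to 183 ± 13.6 normalized reads, by 1.69 (SE 0.14, edgeR adjusted p = 5.46e-09). Of the VGLL cofactors, which compete with YAP1 for TEAD factors, VGLL4 was not called (0.01, SE 0.04, edgeR adjusted p = 0.795). VGLL3, at 86.0 ± 8.19 and 57.0 ± 14.9 normalized reads, had a log2 fold change of −0.60 (edgeR adjusted p = 0.0104) that was lost without PELP1-KD replicate 3 (−0.39, edgeR adjusted p = 0.0716). VGLL1 and VGLL2 were at or near 0 reads. Over these 61 genes of the pathway outside the members, 57 were tested, 21 were called higher and 20 lower, and their median was 0.00, a value whose sign changed with the normalization.

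**Figure D5:**
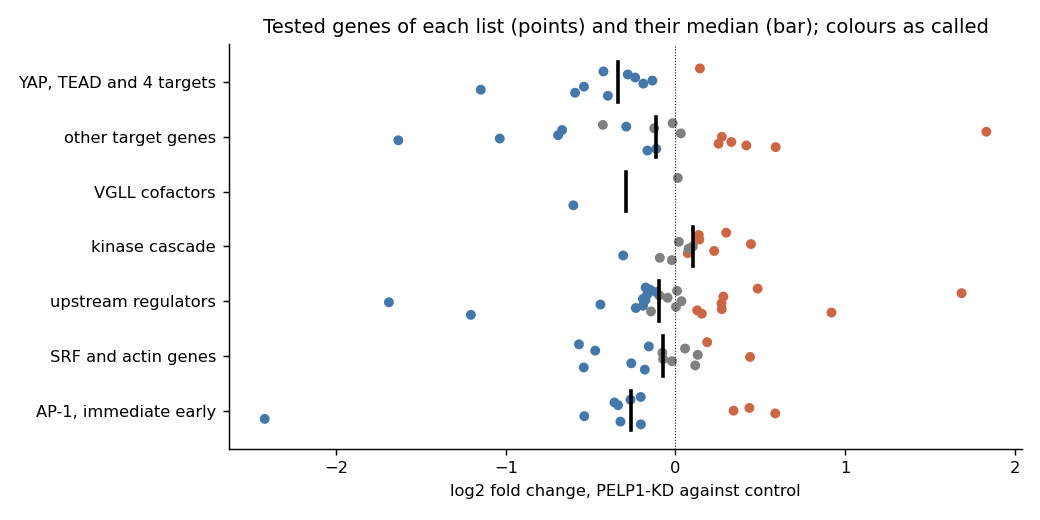
Log2 fold change (horizontal axis) of the tested genes of 7 lists, as points coloured blue for called lower, orange for called higher and grey for not called, with the list's median as a black bar. The median is −0.34 for the 10 genes, −0.11 for other targets, 0.10 for the kinase cascade, −0.10 for upstream regulators and −0.27 for AP-1 and immediate early genes.

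CTGF, CYR61 and ANKRD1 are also read by other factors, so lists of those were counted. Of 12 AP-1 and immediate early genes, 11 were tested, 8 were called lower and 3 higher, with a median of −0.27. Among all tested genes, 26.8% were called lower and 26.8% higher. EGR1, an immediate early factor, had 820, 784 and 719 normalized reads in control and 139, 148 and 146 in the labelled libraries, a log2 fold change of −2.42 (SE 0.08, edgeR adjusted p = 5.12e-15). JUN fell by 0.36 on the log2 scale (SE 0.05, edgeR adjusted p = 3.03e-06), FOSL2 rose by 0.44 (edgeR adjusted p = 8.53e-07), and FOSL1, at 102 and 129 normalized reads, had a log2 fold change of 0.34 (edgeR adjusted p = 0.032) that DESeq2 did not call (adjusted p = 0.125). Without 1 library the call on FOSL1 was lost for control replicate 1 (0.34), control replicate 2 (0.31), PELP1-KD replicate 2 (0.32) and PELP1-KD replicate 3 (0.28).

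Of 15 genes of SRF and the actin cytoskeleton, 14 were tested, 6 were called lower and 2 higher, with a median of −0.08. Here too the shares among all tested genes were 26.8% lower and 26.8% higher. ACTG1 (−0.54, SE 0.03, edgeR adjusted p = 1.96e-11) and TPM2 (−0.57, SE 0.04, edgeR adjusted p = 6.38e-10), parts of the actin filament, were lower. MKL1, a coactivator of SRF, rose by 0.44 (SE 0.04, edgeR adjusted p = 3.04e-08), and VCL, the adhesion protein vinculin, by 0.19 (SE 0.03, edgeR adjusted p = 8.37e-05). SRF itself, named after its values had been seen, was lower, with a log2 fold change of −0.47 (SE 0.05, edgeR adjusted p = 2.39e-07). Of 5 TGF-beta response genes, 4 were tested, of which TGFBI was lower (−0.79, SE 0.03, edgeR adjusted p = 2.72e-13) and SMAD7 higher (0.23, SE 0.05, edgeR adjusted p = 0.000623). The part of these factors in the fall of the 4 targets was not tested.

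Of 7 genes linked to YAP in liver or epithelium, 4 were called higher, 2 lower and 1 was not called. Calls took in 26.8% of all tested genes upward and 26.8% downward. CD44, a hyaluronan receptor, rose from 569 ± 29.0 to 1805 ± 76.3 normalized reads, by 1.67 (SE 0.06, edgeR adjusted p = 4.1e-15), and SPP1, which encodes osteopontin, rose by 1.08 (SE 0.07, edgeR adjusted p = 2.04e-10). BIRC5, which encodes survivin, had a log2 fold change of −0.47 (SE 0.04, edgeR adjusted p = 9.6e-09), and JAG1, a Notch ligand, of −0.38 (SE 0.04, edgeR adjusted p = 3.69e-08). Of 6 relatives of CTGF, CYR61 and ANKRD1, only WISP3 and ANKRD23 passed the filter on low counts. WISP3 was rare, at 24.8 ± 3.37 and 44.8 ± 5.90 normalized reads, and rose by 0.84 (SE 0.23, edgeR adjusted p = 0.0044). The CCN genes NOV, WISP1 and WISP2 averaged under 5 normalized reads in each group, so CTGF and CYR61 supplied nearly all CCN family reads in both groups.

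Genes whose values over the 6 libraries were most like those of CTGF and CYR61 were sought among the 11768 genes averaging 100 or more normalized reads. Likeness was the Euclidean distance between log2 CPM (library-scaled read) values, each centred on its own mean. Among the nearest to CTGF were SLC43A3 (distance 0.13) and GTF3A (0.13), with log2 fold changes of −1.22 and −1.06. The nearest to CYR61 were FBXO5 (distance 0.051), PTPN12 (0.063) and EPDR1 (0.065), with log2 fold changes of −0.55, −0.54 and −0.52. None of these genes is in the lists of target genes used here. With 2 groups this distance mostly reflects the size of the group difference.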

How the data were processed

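RNA was sequenced in 3 control and 3 PELP1-KD libraries of Hep3B cells, grouped by their labels. Per the file headers, the authors deposited estimated counts per gene from featureCounts 1.5.0-p1 on hg19 exons, by strand, with reads of several places or genes shared as fractions. The submitters' processing notes name HISAT2, and the paper's methods name TopHat2 and HTSeq. The labels conflict over the extraction reagent, the library kit (mRNA selection or ribosomal depletion) and the read layout. Fractional values (10.6% to 13.3% of a library) were rounded, and the table was fitted with edgeR 4.0.16 (TMM, filterByExpr, robust glmQLFit and glmQLFTest, R 4.3.3), with Benjamini-Hochberg adjustment over all tested genes. Standard errors were obtained by dividing each log2 fold change by √F. Called means an adjusted p below 0.05. The fit took only the group as a term. RPKM used TMM-scaled library sizes and the deposited exon lengths. The libraries gave a median standard error of 0.063 on the log2 scale.

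Members and lists were chosen with earlier results of these data known, and lists were compiled from general knowledge. Named are all members, listed genes called with a 2-fold change, the 2 of each list with the smallest p in each direction, and the 3 genes nearest to CTGF and CYR61. Other named genes were picked after their values were seen. A few genes that these rules or lists hold are not reported here. On simulated counts for PELP1-KD against control with 200 genes changed 2-fold, edgeR recovered 200 with 10 false calls among 14464 genes, and DESeq2 recovered 197 with 6 among 14537. The simulation gave all genes the same spread and no pairing. Recovery of changes below 2-fold, such as those of every member but CTGF, was not simulated. Replicates of a group differed by more than sampling noise (chi-square per degree of freedom 1.94 to 7.02). Deviations from the group means of same-numbered libraries correlated at 0.336, 0.247 and 0.666 across 6370 genes, each above 0.1. Libraries of the same number may thus be paired, which the replicate block takes up and the main fit does not. The main p values and standard errors leave out any such pairing. Replicates 1 and 2 were not told apart by this check, since control replicate 2 correlated with PELP1-KD replicate 1 at 0.418 and control replicate 1 with PELP1-KD replicate 2 at 0.244. Alternatives were other normalizations, DESeq2 1.42.0, other filters, counts not rounded, the replicate block and each library left out.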

Additional observations from a re-analysis of the deposited data

How the results depend on the processing

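Each of the 10 members kept its direction under all 13 alternatives to the fit. The exception in calls was TEAD2 without PELP1-KD replicate 2 (log2 fold change −0.124, edgeR adjusted p = 0.0552). With each library left out in turn, TEAD2 lay between −0.150 and −0.117, TEAD1 between −0.239 and −0.124, YAP1 between 0.103 and 0.179 and CTGF between −1.17 and −1.12. With the replicate number as a block, 9 members were called lower and 1 higher, as without it, and it changed no call on a member (YAP1 0.143, TEAD1 −0.192). It raised the called genes from 7788 to 8828. Asking for at least a 2-fold change left 1 member called lower and 0 higher. The counts of called pathway genes stayed within 1.5 times under each alternative. The median log2 fold change of the tested pathway genes outside the members lay between −0.0073 and 0.0171 over all alternatives. Normalizations moved the median of all tested genes by under 0.01. The smallest differences among the members, those of YAP1 and TEAD2, had standard errors of 0.0399 and 0.0421.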
